A study of Homo sapiens with 4 samples.

Results

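The genes described here are 10 receptor tyrosine kinases that are studied in esophageal adenocarcinoma (EAC), namely *EGFR*, *ERBB2*, *ERBB3*, *MET*, *MST1R*, *FGFR2*, *FGFR3*, *IGF1R*, *AXL* and *EPHA2*. They were chosen by name and found by Ensembl identifier, and all 10 were among the 63677 genes of the count files and the 17143 genes that had enough reads to be tested. RNA sequencing compared 2 libraries of FLO-1LM cells with 2 libraries of FLO-1 parental cells. FLO-1 is an established human EAC cell line, and FLO-1LM is a single subline, obtained by serial passage of these cells through immunodeficient NSG mice and isolated from the liver. Both lines were untreated cultures, collected at 80% confluency and 24 hours after new medium was given, so the comparison is of cells in culture and not of tumors. Whether the replicates of each line were grown separately is not stated, so the p-values measure the spread between these libraries, which may be technical.

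Receptor tyrosine kinases span the cell membrane, bind a growth factor or a membrane ligand outside the cell, pair with another receptor and phosphorylate tyrosines inside it. Adaptor proteins then dock on these tyrosines and pass the signal to the RAS and ERK cascade and to PI3-kinase and AKT. Several of these receptors are amplified or overexpressed in gastroesophageal adenocarcinoma, where ERBB2 (HER2) is the target of trastuzumab, and AXL is often linked to mesenchymal tumor cells.

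Total counts per library ran from 19060310 to 25920336, and levels are given as TMM-scaled counts-per-million values (CPM). The lines were compared by edgeR's quasi-likelihood test over all 17143 genes, with p-values adjusted by the Benjamini-Hochberg method and a gene called when its adjusted p was below 0.05. In that fit 382 genes were called, which is 2.23% of those tested, and 313 of them were lower and 69 higher in FLO-1LM. Lower calls were thus the more frequent ones over all genes, and the counts given for each gene list stand against that split. The labels give no batch, and any batch shared by the libraries of 1 line cannot be told apart from it. For a single value, exact permutation of the 4 libraries cannot give a p below 0.333.

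None of the 10 receptors was called between FLO-1LM and parental cells (0 of 10, against 2.23% of all genes tested). Their log2 fold changes ran from −0.19 for *EPHA2* to 0.16 for *MST1R*, with 5 above 0 and 5 below, and their median was 0.02, beside 0.00 (0.0016) over all genes tested. At an unadjusted p below 0.05 from edgeR there were 2 of 10, *EPHA2* and *IGF1R*, beside 12.4% of all genes tested, and DESeq2 and limma voom also called 0 of the 10. The CPM values of the lines did not overlap for 4 of 10 receptors, and this was so for 42.6% of all genes tested.

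*EPHA2* is a receptor for ephrin-A ligands on neighboring cells. It lies on the reverse strand at chr1:16450832-16482564 of GRCh37 (ENSG00000142627) and had the highest level per length of all receptor tyrosine kinases in these cells. Its CPM was 209.5 and 211.5 in the FLO-1LM libraries and 239.3 and 241.9 in the parental libraries. Both FLO-1LM values were below both parental values (211 ± 1.39 against 241 ± 1.80, SD, n = 2 each). An SD from 2 libraries is itself very uncertain, so the change is judged by the standard error of the fit. The log2 fold change was −0.19 (standard error, SE, 0.072, 95% interval −0.34 to −0.04, edgeR adjusted p = 0.240), and so it did not pass the threshold. *EPHA2-AS1*, an antisense gene that starts within *EPHA2* but shares no exon base with it, had 5 and 0 counts in FLO-1LM and 8 and 7 in parental cells.

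*AXL* encodes a receptor of the TAM family, which is bound by GAS6. It lies on the forward strand at chr19:41725128-41767671 (ENSG00000167601). Its CPM was 124.6 and 156.3 in FLO-1LM and 136.9 and 135.6 in parental cells. The parental values lay inside the range of the FLO-1LM pair, which had the widest spread of the well-expressed receptors (140 ± 22.4, SD, n = 2). The log2 fold change was 0.04 (SE 0.093, 95% interval −0.15 to 0.24, edgeR adjusted p = 0.911). It was −0.13 without FLO-1LM replicate 2 and 0.20 without FLO-1LM replicate 1, and neither value passed the threshold.

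The ERBB receptors pair with each other in many combinations. *EGFR*, the receptor for EGF and TGF-alpha, lies on the forward strand at chr7:55086710-55279321 (ENSG00000146648). Its CPM was 133.1 and 132.5 in FLO-1LM and 140.1 and 126.8 in parental cells. Both FLO-1LM values fell between the parental values, and the log2 fold change was −0.01 (SE 0.080, 95% interval −0.17 to 0.16, edgeR adjusted p = 0.986). The interval corresponds to a fold of 0.886 to 1.12. *EGFR-AS1*, a long noncoding gene on the opposite strand that shares 186 exon bases with *EGFR*, had 0 counts in both FLO-1LM libraries and 12 and 2 in parental cells.

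*ERBB2* encodes the family member with no known ligand of its own, which acts as the partner of the others. It lies on the forward strand at chr17:37844167-37886679 (ENSG00000141736), and its CPM was 176.0 and 165.7 in FLO-1LM and 162.3 and 155.3 in parental cells. Both FLO-1LM values were the higher ones, but the log2 fold change of 0.11 did not pass the threshold (SE 0.076, 95% interval −0.05 to 0.27, edgeR adjusted p = 0.648). Its exons share 571 bases with *MIEN1* and 144 with *PGAP3*, both on the opposite strand. The strand setting of the counting is not stated, so reads from these shared stretches cannot be assigned with certainty. *MIEN1* had 933 and 1043 counts in FLO-1LM and 877 and 847 in parental cells, and *PGAP3* 385 and 426 against 324 and 331. The other genes that share exon bases with *AXL*, *ERBB3* or *MST1R*, all without a symbol, had at most 1 count in any library. *ERBB3*, at chr12:56470583-56497289 on the forward strand (ENSG00000065361), encodes a neuregulin receptor with little kinase activity of its own. Its CPM was 15.5 and 17.3 in FLO-1LM and 16.8 and 15.1 in parental cells, which overlapped. The log2 fold change was 0.04 (SE 0.15, 95% interval −0.28 to 0.36, edgeR adjusted p = 0.954).

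*MET* encodes the receptor for hepatocyte growth factor and lies on the forward strand at chr7:116312250-116438431 (ENSG00000105976). Its CPM was 47.3 and 46.6 in FLO-1LM and 54.6 and 51.7 in parental cells. Both FLO-1LM values were the lower ones, and the log2 fold change was −0.18 (SE 0.094, 95% interval −0.38 to 0.02, edgeR adjusted p = 0.466). *MST1R* encodes RON, the relative of MET that binds macrophage-stimulating protein, on the reverse strand at chr3:49924435-49941306 (ENSG00000164078). It had 7 and 13 counts in FLO-1LM and 6 and 9 in parental cells, the fewest of the 10 receptors. The log2 fold change of 0.16 had a standard error of 0.81 and a 95% interval of −1.53 to 1.86 (edgeR adjusted p = 0.968). At that standard error an estimate would have had to reach 8.76-fold to be called. A real change would alter the counts and with them the standard error, so this is not a fixed limit.

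*IGF1R* encodes the receptor for the insulin-like growth factors IGF1 and IGF2, on the forward strand at chr15:99191768-99507759 (ENSG00000140443). Its CPM was 226.0 and 217.4 in FLO-1LM and 262.6 and 240.2 in parental cells, the highest mean CPM of the 10. Both FLO-1LM values were the lower ones, and the log2 fold change was −0.18 (SE 0.075, 95% interval −0.34 to −0.02, edgeR adjusted p = 0.313). *FGFR3*, a fibroblast growth factor receptor at chr4:1795020-1810599 on the forward strand (ENSG00000068078), had 8.48 and 8.74 CPM in FLO-1LM and 7.80 and 10.01 in parental cells. The values overlapped, with a log2 fold change of −0.05 (SE 0.20, 95% interval −0.46 to 0.37, edgeR adjusted p = 0.964). *FGFR2*, on the reverse strand at chr10:123237846-123357972 (ENSG00000066468), had 83 and 106 counts in FLO-1LM and 78 and 79 in parental cells. Its log2 fold change was 0.04 (SE 0.28, 95% interval −0.54 to 0.62, edgeR adjusted p = 0.978).

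**Figure D1:**
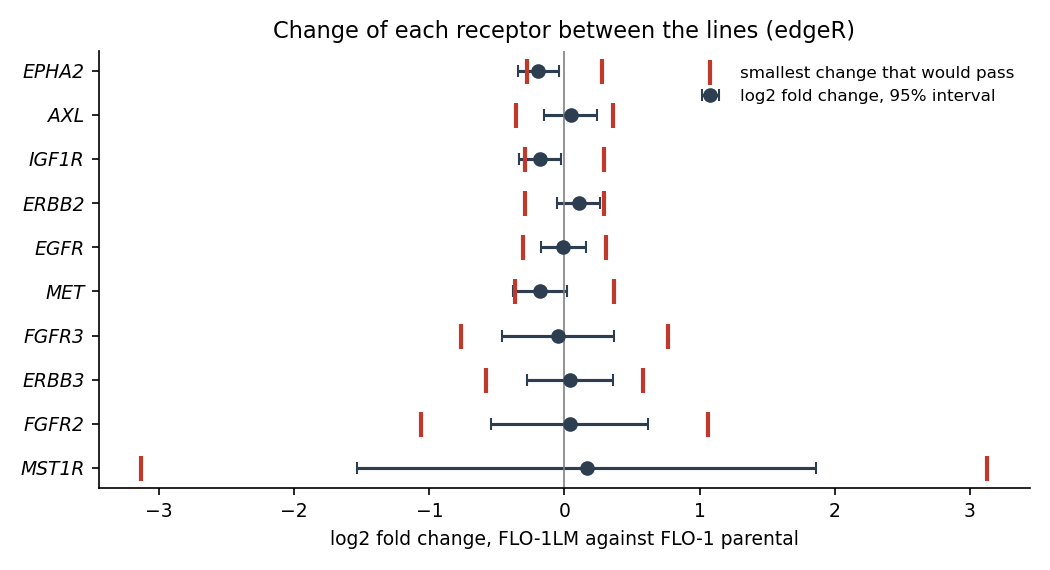
Log2 fold change of each of the 10 receptors, FLO-1LM against FLO-1 parental, with its 95% interval (points and bars, edgeR, 2 libraries per line). Red marks give the smallest change that would have been called at each gene's standard error; every point lies between its marks, which sit at 0.28 for *EPHA2* and 3.13 for *MST1R*.

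The depth and the spread between libraries set how small a change could have been called. At each gene's standard error, and at the largest unadjusted p called in this fit (0.00111 from edgeR), a change of 1.21-fold in *EPHA2*, 1.22-fold in *IGF1R*, 1.23-fold in *ERBB2*, 1.24-fold in *EGFR*, 1.28-fold in *AXL* and 1.29-fold in *MET* would have passed. The less expressed receptors needed more, 1.499-fold in *ERBB3*, 1.70-fold in *FGFR3* and 2.09-fold in *FGFR2*. Among the 6 more highly expressed receptors the 95% intervals reached from 0.769-fold at the lowest, for *MET*, to 1.20-fold at the highest, for *ERBB2*. A p that misses the threshold does not show that the lines are alike, and these intervals give the differences that the libraries allow. In bulk RNA, fewer cells that express a receptor and less of its RNA per cell cannot be told apart.

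Levels of different genes were compared as CPM per kilobase of exon, the CPM divided by the summed length of the exons of the gene. In that unit the mean over the 4 libraries was 54.5 for *EPHA2*, 26.9 for *AXL*, 17.0 for *IGF1R*, 16.0 for *ERBB2*, 8.35 for *EGFR* and 6.93 for *MET*. The remaining receptors were far lower, at 1.81 for *FGFR3*, 1.38 for *ERBB3*, 0.206 for *FGFR2* and 0.0743 for *MST1R*. Neighbors in this order were separated in every library except *IGF1R* and *ERBB2*, whose ranges of 15.59 to 18.84 and 15.04 to 17.05 overlapped. In this unit the order of these genes differed by line, although neither gene was called. *ERBB2* was above *IGF1R* in both FLO-1LM libraries (17.05 against 16.21 and 16.06 against 15.59). It was below *IGF1R* in both parental libraries (15.73 against 18.84 and 15.04 against 17.23). From *MST1R* to *EPHA2* the level differed 733-fold. With the length of the longest transcript in place of all exons, 5 receptors changed rank, with *ERBB2* second at 33.4 and *ERBB3* (2.58) above *FGFR3* (2.03). At that length *ERBB2* was above *IGF1R* (19.3) in both lines, so their switch in order depends on the length used. *EPHA2* stayed first and *MST1R* last.

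**Figure D2:**
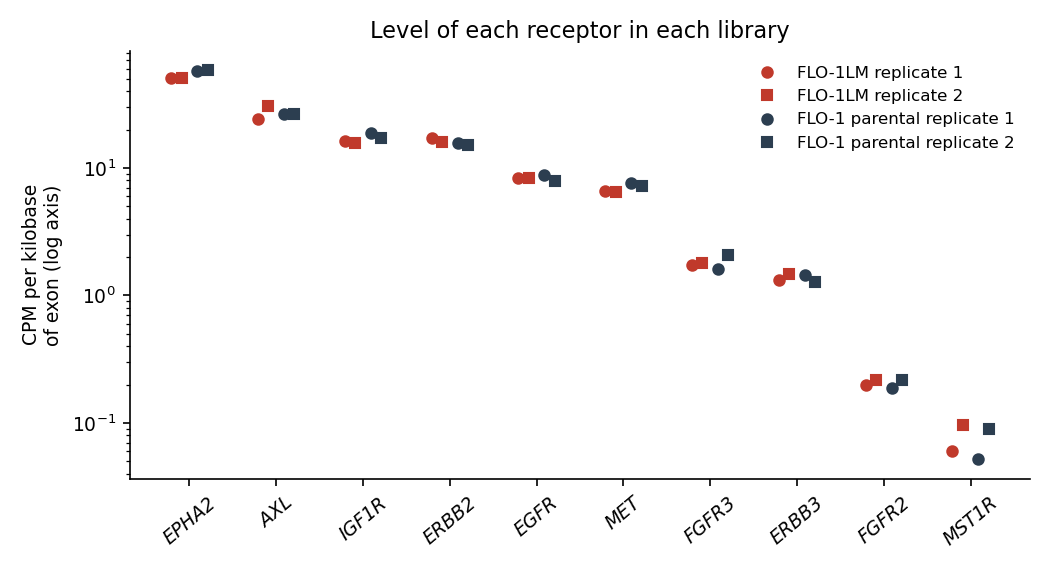
Level of each receptor in each library, in CPM per kilobase of exon on a log axis, ordered by the mean over the 4 libraries. Red symbols are FLO-1LM and dark symbols FLO-1 parental; the lines lie close together for each gene, while levels run from 0.0743 for *MST1R* to 54.5 for *EPHA2*.

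Added together, the 10 receptors had 944.5 and 960.7 CPM in FLO-1LM and 1024 and 981.1 in parental cells. The mean was 953 ± 11.5 in FLO-1LM and 1003 ± 30.5 in parental cells (SD, n = 2 each). Both FLO-1LM sums were the lower ones, and the exact permutation p of 0.333 is the smallest that 4 libraries can give. The log2 ratio of the sums was −0.07, and −0.0425 without parental replicate 1. The 10 receptors held 50.6% and 50.2% of the CPM of all receptor tyrosine kinases in FLO-1LM and 51.4% and 49.7% in parental cells, so their share overlapped between the lines.

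A promoter stretch is printed for the most and for the least expressed of the 10. The stretches below are the 250 bases before a RefSeq transcription start on GRCh38.p14, 5′ to 3′ on the strand of the gene, with each GC box (GGGCGG on either strand, the core of the SP1 site) in capitals. *EPHA2* lies on the reverse strand at chr1:16156070-16156319 and *MST1R* on the reverse strand at chr3:49903874-49904123.
EPHA2: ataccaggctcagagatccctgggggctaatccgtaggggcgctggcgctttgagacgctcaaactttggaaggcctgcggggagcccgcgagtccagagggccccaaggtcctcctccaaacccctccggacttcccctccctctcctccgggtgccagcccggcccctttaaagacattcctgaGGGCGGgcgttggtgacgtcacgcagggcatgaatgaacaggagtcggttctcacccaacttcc
MST1R: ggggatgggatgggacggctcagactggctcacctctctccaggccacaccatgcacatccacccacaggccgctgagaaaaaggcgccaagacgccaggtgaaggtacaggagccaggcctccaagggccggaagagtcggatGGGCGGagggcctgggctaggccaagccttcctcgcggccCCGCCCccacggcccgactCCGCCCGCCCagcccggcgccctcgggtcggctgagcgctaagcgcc
The *EPHA2* stretch had 63.2% G and C and 1 GC box, and the *MST1R* stretch had 70.8% G and C and 4 GC boxes, of which a pair overlap. Over the 35116 promoter windows of the same length the median was 58.0% G and C. At least 1 GC box was found in 42.6% of these windows, and 4 or more in 7.63%. The letters TATAAA were found in the last 50 bases of neither stretch, and of 2.63% of all windows. Such matches describe the letters only.

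The wider family has 58 receptor tyrosine kinases, and all were found in the files. Of these, 36 could be tested, and 1 was lower in FLO-1LM and 0 were higher, with a median log2 fold change of −0.03 (beside 0.0016 over all genes). The receptor that fell was *ROR1*, which binds WNT5A and has little kinase activity. Its CPM was 41.5 and 45.2 in FLO-1LM and 56.6 and 57.7 in parental cells, with no overlap between the lines. The log2 fold change was −0.40 (SE 0.096, edgeR adjusted p = 0.0330), and the adjusted p was 0.373 and 0.410 when parental replicate 1 or 2 was left out, with log2 fold changes of −0.41 and −0.38. *DDR1*, a collagen receptor, was next by p at −0.26 (SE 0.081, edgeR adjusted p = 0.126). It lies in the MHC region, for which the Ensembl gene set also holds alternative copies, so its reads may be split and its value is uncertain. *PTK7*, a pseudokinase of Wnt signaling, had the second highest level per length at 31.5, between *EPHA2* and *AXL*, and a log2 fold change of 0.06 (SE 0.071, edgeR adjusted p = 0.822). By level per length, 4 of the first 5 receptors were among the 10 described here. Of the 22 receptors that could not be tested, 12 were listed at 0 in every library, among them *ERBB4*, *FGFR1*, *KIT*, *KDR* and *ALK*. A count of 0 allows up to 0.116 to 0.157 CPM in these libraries, by counting error only, and says only that no read was assigned to the gene.

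**Figure D3:**
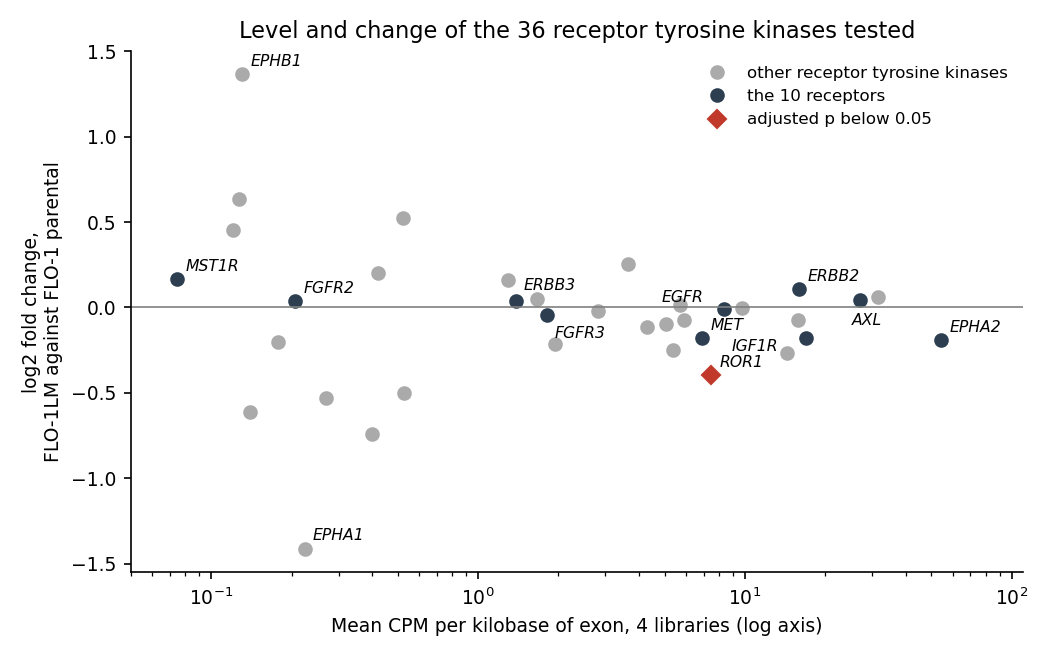
Mean level over the 4 libraries (CPM per kilobase of exon, log axis) against log2 fold change, FLO-1LM against FLO-1 parental, for the 36 receptor tyrosine kinases tested. Dark points are the 10 receptors and the red diamond is *ROR1* at −0.40, the only one called; points far from 0, such as *EPHA1* at −1.41, lie at low levels.

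Most ligands of these receptors had few assigned reads or none in both lines. Of 11 EGF-family ligands, 6 were listed at 0 in every library, among them *EGF*, *AREG* and *EREG*, and 3 could be tested. *TGFA*, a ligand of EGFR, had 2 and 1 counts in FLO-1LM and 10 and 12 in parental cells. The counts did not overlap, but the log2 fold change of −2.99 had a standard error of 1.04 (edgeR adjusted p = 0.194). *HBEGF*, which binds EGFR and ERBB4, had a log2 fold change of −0.29 (SE 0.28, edgeR adjusted p = 0.766), with 95 and 95 counts in FLO-1LM and 83 and 115 in parental cells. *NRG2*, the remaining tested ligand of this family, had 16.4 and 12.6 CPM in FLO-1LM and 11.75 and 16.1 in parental cells. These values overlapped, with a log2 fold change of 0.06 (SE 0.18, edgeR adjusted p = 0.936).

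Of 24 ligands of MET, MST1R, IGF1R, AXL and the FGF receptors, 5 could be tested, 1 fell and 0 rose. *FGF18*, a ligand of FGFR3, had 3.81 and 2.83 CPM in FLO-1LM and 9.21 and 6.99 in parental cells, with no overlap. Its log2 fold change was −1.29 (SE 0.25, edgeR adjusted p = 0.00846), and −1.07 (edgeR adjusted p = 0.319) without parental replicate 1. *GAS6*, the ligand of AXL, was well expressed at 84.6 and 74.7 CPM in FLO-1LM and 77.8 and 88.8 in parental cells, with a log2 fold change of −0.06 (SE 0.093, edgeR adjusted p = 0.865). *IGF2*, a ligand of IGF1R, had 78.1 and 55.6 CPM in FLO-1LM and 71.1 and 69.0 in parental cells, which overlapped, and a read-through transcript that contains it makes its count uncertain. *MST1*, the ligand of MST1R, had 90 and 153 counts in FLO-1LM and 100 and 131 in parental cells, and near-identical copies in the genome make this uncertain as well. *HGF*, the ligand of MET, had 1 count in FLO-1LM replicate 1 and 0 in the other libraries. Of the 5 ephrin-A ligands of EPHA2, all could be tested and 0 were called. *EFNA1* had 57.4 and 53.4 CPM in FLO-1LM and 53.5 and 52.5 in parental cells, which overlapped. The smallest p-values were those of *EFNA5* (log2 fold change −0.21, SE 0.17, edgeR adjusted p = 0.715) and *EFNA4* (−0.17, SE 0.18, edgeR adjusted p = 0.799).

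Among 24 coreceptors, processing proteases and IGF-binding proteins, 18 could be tested, 3 fell and 0 rose, and the median log2 fold change was −0.19. *IGFBP2*, which binds IGFs outside the cell, had 990 (990.5) and 964 CPM in FLO-1LM and 1317 and 1482 in parental cells. Its log2 fold change was −0.52 (SE 0.070, edgeR adjusted p = 0.000256), and it passed the threshold in all 12 alternative fits. *IGFBP4*, another IGF-binding protein, had 90.9 and 93.5 CPM in FLO-1LM and 119.3 and 112.0 in parental cells, with a log2 fold change of −0.33 (SE 0.081, edgeR adjusted p = 0.0378). *SDC4* encodes syndecan-4, a heparan sulfate proteoglycan that helps FGFs bind their receptors. It had 398 and 415 CPM in FLO-1LM and 558 and 501 in parental cells, with a log2 fold change of −0.38 (SE 0.073, edgeR adjusted p = 0.00767). The lines did not overlap for any of these 3 genes. Without parental replicate 1 the adjusted p from edgeR was 0.701 for *IGFBP4* and 0.295 for *SDC4*, and without parental replicate 2 it was 0.211 for *IGFBP4*.

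Inside the cell, 38 of 41 adaptor and proximal signaling genes could be tested, 1 fell and 0 rose, with a median of −0.03. *PIK3R3*, a regulatory subunit of PI3-kinase, fell from 86.5 and 76.3 CPM in parental cells to 62.2 and 59.7 in FLO-1LM, a log2 fold change of −0.42 (SE 0.091, edgeR adjusted p = 0.0175). Without parental replicate 1 it was −0.33 (edgeR adjusted p = 0.620). *GRB10*, an adaptor that dampens IGF1R and insulin receptor signaling, was next at −0.23 (SE 0.087, edgeR adjusted p = 0.239). Of 20 tested genes for the endocytosis and recycling of receptors, 0 were called. *SH3KBP1* (CIN85), which joins CBL to endophilin at internalized receptors, had the smallest p, at −0.24 (SE 0.082, edgeR adjusted p = 0.171), followed by *RAB5A*, a GTPase of early endosomes, at 0.14 (SE 0.094, edgeR adjusted p = 0.631).

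Of 29 negative regulators tested, 1 rose and 1 fell, with a median log2 fold change of 0.01. *PTPRK*, a receptor tyrosine phosphatase for which EGFR is a known substrate, had 17.0 and 15.3 CPM in FLO-1LM and 10.1 and 8.08 in parental cells. The lines did not overlap, and the log2 fold change was 0.83 (SE 0.17, edgeR adjusted p = 0.0135), or 0.68 (edgeR adjusted p = 0.304) without parental replicate 2. *PTPN1* encodes PTP1B, a phosphatase of the insulin receptor and EGFR. It had 68.3 and 71.2 CPM in FLO-1LM and 87.8 and 88.0 in parental cells, a log2 fold change of −0.33 (SE 0.084, edgeR adjusted p = 0.0433). Its adjusted p from edgeR was 0.536 and 0.446 without parental replicate 1 and 2.

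Genes that ERK signaling induces were also examined, and *EPHA2* itself is on this list. The activity of the receptors and of ERK was not measured. Of 16 such genes, 15 could be tested, 1 fell and 0 rose, with a median log2 fold change of −0.05. *EGR1*, an immediate early transcription factor, had 18.3 and 15.1 CPM in FLO-1LM and 25.9 and 25.3 in parental cells. Its log2 fold change was −0.62 (SE 0.14, edgeR adjusted p = 0.0209), with an adjusted p from edgeR of 0.295 and 0.173 when parental replicate 1 or 2 was left out. *MYC* had 91.2 and 95.7 CPM in FLO-1LM and 68.8 and 80.6 in parental cells, a log2 fold change of 0.32 (SE 0.091, edgeR adjusted p = 0.0786) that did not pass the threshold. It passed in 3 of the 12 alternative fits, with no filter on low counts (edgeR adjusted p = 0.0223), without FLO-1LM replicate 1 (0.00557) and without FLO-1LM replicate 2 (0.0476), and the adjusted p over the 12 ran up to 0.999, without parental replicate 1. Over the 9 lists, which overlap in part, 9 of the 156 tested genes other than the 10 receptors were called. Over all genes tested, 382 of 17143 were called (2.23%). The lists were chosen with earlier results of these data known, so no conclusion is drawn from these counts.

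**Figure D4:**
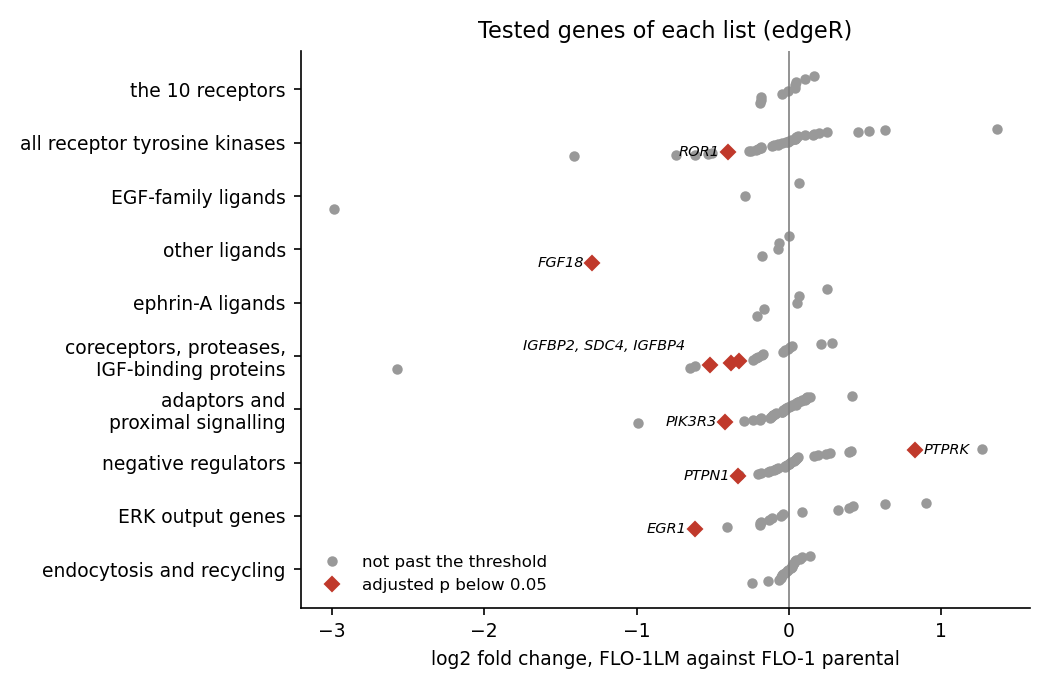
Log2 fold change, FLO-1LM against FLO-1 parental, of every tested gene of each list (edgeR, 1 point per gene). Red diamonds are genes called, each named; the 10 receptors hold none, and *PTPRK* at 0.83 is the only called gene that was higher in FLO-1LM.

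The labelled cell type was checked against its markers. Of 12 epithelial genes, *EPCAM* had 3 to 12 counts, *ESRP1* 0 to 3 and *GRHL2* was listed at 0, while *KRT8* was well expressed. *CDH1* had 16.4 and 19.9 CPM in FLO-1LM and 85.9 and 82.6 in parental cells. Of the 9 epithelial genes tested, 5 fell in FLO-1LM and 0 rose, beside 313 that fell and 69 that rose of 17143 genes tested (2.23%). The 5 include *CDH1* at −2.21 (SE 0.11, edgeR adjusted p = 1.12e-09). The tested epithelial genes that did not pass the threshold had log2 fold changes of −0.83 for *ELF3*, −0.44 for *MUC1*, 0.48 for *CLDN7* and 0.64 for *KRT7*. The summed level of the epithelial list was 518.4 to 536.3 CPM in FLO-1LM and 901.5 to 910.5 in parental cells. Most of it came from *KRT8* (mean 273.0 CPM in FLO-1LM and 443.5 in parental cells) and *KRT18* (184.3 and 291.4). Markers of other cell types were low in sum in every library. The sums reached at most 0.313 CPM for endothelial, 3.46 for leukocyte, 14.4 for fibroblast and 18.1 for hepatocyte genes. *ALB*, *PTPRC*, *COL3A1* and *KDR* were at 0 in all 4 libraries, but some other markers were detected in each. The hepatocyte sum came mostly from *SERPINA1*, at 13.17 to 18.05 CPM. Most of the fibroblast sum was *COL1A1*, at 9.70 to 12.75 CPM. *ITGAM*, a leukocyte gene, had 29 to 64 counts per library. Mitochondrial genes took 9.57% to 9.96% of counts in FLO-1LM and 7.93% to 8.31% in parental cells, and the part of this in the results was not tested. Leaving them out moved no receptor past the threshold.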

How the data were processed

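Total RNA was made by the authors into directional libraries, 2 of FLO-1LM and 2 of FLO-1 parental cells, and sequenced on an Illumina instrument. Per the labels and the study's methods, reads were converted with bcl2fastq 2.17, trimmed with Trimmomatic 0.30 and mapped to GRCh37 with an aligner that is not named. The authors deposited unnormalized counts of reads for each Ensembl gene, with a file for every library, and neither the counting program nor its strand setting is given in the sources used here.

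Here, genes were kept by edgeR's filterByExpr (minimum count 10, minimum total 15), TMM factors were applied, and all genes were fitted together with estimateDisp, glmQLFit and glmQLFTest (R 4.3.3, edgeR 4.0.16). The study's own test, limma voom (limma 3.58.1), and DESeq2 1.42.0 served as alternatives, beside other scalings and filters and the omission of each library. Standard errors were obtained from the size of each log2 fold change over the root of its F statistic, and 95% intervals use the degrees of freedom of the fit. The script was tested on simulated data.

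Symbols came from the gene name table, which matched 10 of 10 receptors and every other listed gene except the marker *PECAM1*. Positions, exon lengths and overlaps came from GENCODE v44 mapped to GRCh37, a later annotation than the one counted on. Promoter stretches came from RefSeq on GRCh38.p14, for which *ERBB3* had no entry. The count files of a line differed by more than sampling noise (chi-square over its degrees of freedom 9.16 for FLO-1LM and 4.37 for parental cells). All 4 libraries were counted as separate samples, but this difference does not show that the cultures were grown separately.

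The receptors and gene lists were chosen with earlier results of these data known. Named genes are the 10 receptors, the 5 receptor tyrosine kinases with the highest level per length, and genes that overlap a receptor. From each list other than the cell type markers every called gene is named. Where fewer than 2 were called, the 2 tested genes with the smallest unadjusted p are named. A few others are named as examples, chosen after their values were seen.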

Additional observations from a re-analysis of the deposited data

How the results depend on the processing

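None of the 10 receptors was called in any of the 12 alternative fits, and the lowest adjusted p was 0.118, for *EPHA2* with limma voom without TMM factors. With at least 10 counts in every library *MST1R* could not be fitted. With no filter on low counts 577 genes were called in place of 382. With each library left out in turn the number ran from 116 to 1052 over all genes and from 2 to 18 (in place of 9) over the list genes other than the receptors, with the fewest without parental replicate 1 and the most without FLO-1LM replicate 1. Such a fit takes its spread from the pair left whole. In these fits the log2 fold change crossed 0 for *EGFR* (−0.0771 to 0.0671), *ERBB3* (−0.0439 to 0.12), *FGFR2* (−0.0701 to 0.15), *FGFR3* (−0.22 to 0.14), *AXL* (−0.13 to 0.20), *MST1R* (−0.22 to 0.59), *GAS6* (−0.16 to 0.0345) and *HBEGF* (−0.59 to 0.0777), while *EPHA2*, *IGF1R*, *MET* and *ERBB2* kept their direction in all 12 fits. The order of levels changed for 5 receptors with longest transcript lengths. The summed level of the receptors had a log2 ratio of −0.07, and −0.0397 without *IGF1R*. With each library left out it ran from −0.105 without parental replicate 2 to −0.0425 without parental replicate 1. No paired analysis was possible because the labels give the libraries no replicate numbers, and those used here only name the libraries in order of deposit.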
